A study of Caenorhabditis elegans with 2 samples.

Results

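The 269 genes of Caenorhabditis elegans whose symbol starts with nhr- encode nuclear hormone receptors, and they are described here by the peaks of AKIR-1, the worm akirin, at their promoters. They are 269 of the 19985 protein-coding genes of the Ensembl annotation of WBcel235, and the 19716 other protein-coding genes are set beside them. The membership uses the gene symbol alone and no measured value. Chromatin of whole worms was precipitated with an antibody against GFP from the strain IG1654, which carries frSi12, an insertion on chromosome II of akir-1p::AKIR-1::GFP with a C-terminal GFP-FLAG tag. The worms were young adults of mixed sex, 70 hours old, and had been synchronised as L1 larvae starved after bleaching. The design holds 1 group of 2 biological replicates, numbered 3 and 4, so no condition can be compared with another. AKIR-1 came from the transgene under the akir-1 promoter, whether the strain also kept the gene at its own locus is not given in the sources used here, and chromatin of all tissues and both sexes was mixed in each sample.

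Nuclear hormone receptors are transcription factors with a zinc-finger DNA-binding domain and a ligand-binding domain, and many are switched by small lipophilic ligands such as sterols and fatty acids. Caenorhabditis elegans has far more of them than insects or vertebrates, because receptors related to HNF4 multiplied, often as neighbours on chromosome V. The worm receptors with known functions act in fat metabolism and feeding, in the response to xenobiotics, pathogens and hypoxia, and in molting and the timing of development. Akirins are nuclear proteins with no DNA-binding domain of their own that work with transcription factors and chromatin remodelling complexes.

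The deposited lists give, for each peak, a position, a summit, a signal value and a q-value as the authors made them, with 30000 peaks in the replicate 3, the replicate 4 and the pooled list and 400 in the list thresholded by IDR, the irreproducible discovery rate. The scale of the signal values is not given in the sources used here and differs between lists, so values are read only within a list. In the pooled list they ran from 33.6 to 6567 with a median of 44.5, and the lowest IDR-thresholded value was 108. The promoter of a gene was taken as the 500 bp before and the 100 bp after each of its annotated transcript starts, and a gene was counted when at least 1 summit lay in its promoter. Shares carry exact binomial intervals at 95%, which cover counting error over genes only. With no read counts in the lists, depth is unknown, and the spread between the worms of the 2 samples enters no interval.

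The sequence under 4 nhr peaks is shown first. The peaks at nhr-68, nhr-48 and nhr-41 are among the 4 strongest of the family. That at nhr-28, rank 1121 in the pooled list, was picked because its window matches half-sites to which nuclear receptors bind. The window of nhr-35, also among the 4 strongest, holds a half-site match too and is not shown. Each line gives 151 bases centred on the pooled summit, 5′ to 3′ on the strand of the gene, from the RefSeq assembly WBcel235, whose coordinates equal those of the ce11 lists. Capitals mark matches on either strand to the half-sites AGGTCA and AGTTCA or to GAGAGA, a common promoter word that is spelled TCTCTC on the opposite strand. The opposite-strand spellings of the half-sites are TGACCT and TGAACT. A further half-site, AGTGCA, and the word TATAAA were searched as well and are in none of the 4 windows.
nhr-68, chrV:11572999-11573149, plus strand: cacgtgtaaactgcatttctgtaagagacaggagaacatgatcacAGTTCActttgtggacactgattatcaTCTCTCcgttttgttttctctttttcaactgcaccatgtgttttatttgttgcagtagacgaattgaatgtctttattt
nhr-48, chrX:15707644-15707794, plus strand: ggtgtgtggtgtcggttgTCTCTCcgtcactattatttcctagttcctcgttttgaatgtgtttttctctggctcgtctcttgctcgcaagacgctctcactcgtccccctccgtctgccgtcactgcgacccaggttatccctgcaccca
nhr-41, chrIV:1388200-1388350, plus strand: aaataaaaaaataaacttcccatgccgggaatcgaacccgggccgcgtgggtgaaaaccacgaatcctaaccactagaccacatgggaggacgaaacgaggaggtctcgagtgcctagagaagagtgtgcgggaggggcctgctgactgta
nhr-28, chrX:16355486-16355636, plus strand: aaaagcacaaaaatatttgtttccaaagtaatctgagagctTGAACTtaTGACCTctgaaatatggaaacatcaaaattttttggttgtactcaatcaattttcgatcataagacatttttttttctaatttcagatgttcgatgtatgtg

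A pooled summit lay in the promoter of 86 of the 269 nhr genes, 32.0% (26.4% to 37.9%), against 22.9% (22.3% to 23.5%) of other protein-coding genes. Over all protein-coding genes the share was 23%. With replicate 3 alone the nhr share was 29.0% (23.6% to 34.8%) against 22.7% of other genes, and 22.8% of all genes. With replicate 4 alone it was 30.5% (25% to 36.4%) against 23.6% of other genes, and 23.7% of all genes. Thus the nhr share lay above that of other genes in each of the 3 lists, by 6.31 to 9.07 percentage points. The pooled list was made from both replicates and is not an independent observation beside them.

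A summit in the pooled list and in both replicate lists was present at 44 nhr promoters, 16.4% (12.1% to 21.3%), against 10.6% of other genes and 10.7% of all. These summits need not belong to the same peak. At nhr-40, for example, no replicate 3 peak overlapped the strongest pooled peak, and at nhr-137 no replicate 4 peak did. A further 18 nhr genes had a pooled and a replicate 3 summit, 18 had a pooled and a replicate 4 summit, and 6 had a pooled summit alone. The replicate lists without the pooled one accounted for 33 more, of which 3 had summits in both, 13 in replicate 3 and 17 in replicate 4. No list had a summit at the remaining 150 nhr promoters, 55.8% of the family, against 63.5% of other genes. Most of the receptor genes thus had no summit in the window of any start, though a peak can reach into a promoter with its summit outside it. When any overlap of peak and promoter counted, the pooled list reached 117 nhr genes.

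The IDR-thresholded list gave 1 nhr gene, nhr-68, a share of 0.372% (0.00941% to 2.05%), against 0.959% (0.827% to 1.10%) of other genes and 0.951% of all. The interval of the nhr share covers the share of other genes. Down the pooled list, the 1000 strongest peaks reached 4 nhr genes, 1.49%, against 1.83% of other genes and 1.82% of all, and the 2000 strongest reached 10, 3.72%, against 2.91% and 2.92%. The 5000 strongest reached 21, 7.81%, against 5.52% and 5.55%, and the 10000 strongest reached 36, 13.4% (9.55% to 18.0%), against 9.31% (8.91% to 9.73%) and 9.37%. The intervals of the nhr and the other genes were apart with the whole pooled list and overlapped narrowly with the 10000 strongest, where the difference was 4.07 percentage points (0.240 to 8.73).

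Most of these peaks were weak. The strongest pooled peak of the 86 nhr genes had signal values of 33.7 to 128 with a median of 46.4, against a median of 46.8 at the 4516 other genes with a summit. The deposited q-values at nhr genes ran from 0.0264 to 0.801 with a median of 0.702, and 1 of 86 was at 0.05 or lower and 18 at 0.5 or lower. At other genes 172 of 4516 were at 0.05 or lower and 916 at 0.5 or lower. In strength, then, the peaks at nhr promoters had about the same median as those at other promoters, and none reached the highest values of the other genes, which went up to 2073.

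**Figure D1:**
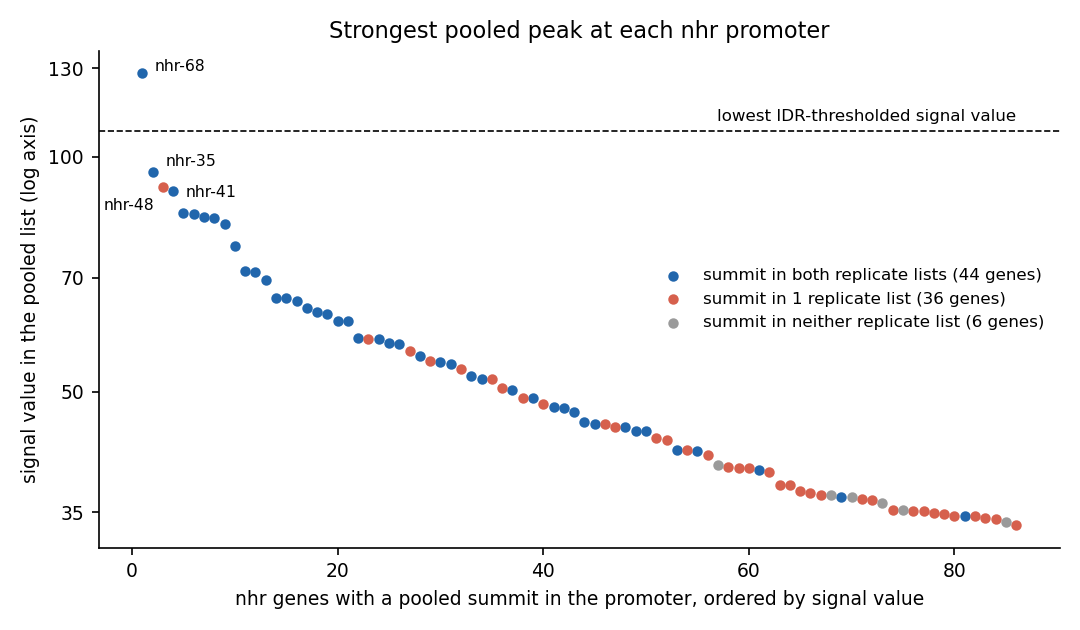
Signal value (log axis, deposited units) of the strongest pooled peak in the promoter of each of the 86 nhr genes with a pooled summit, in falling order, coloured by whether a summit in the promoter was also in both, 1 or neither replicate list. nhr-68 alone lies above the dashed line, the lowest IDR-thresholded value of 108, and 21 of the 22 strongest have summits in both replicates.

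Genes with more transcript starts have more promoter sequence, and nhr genes had a mean of 1.7 starts against 1.49, with 62.1% against 72.7% having a single start. At nhr genes with 1 start, 42 of 167 had a pooled summit, 25.1% (18.8% to 32.4%), against 18.8% (18.2% to 19.5%) of other genes. With 2 starts it was 21 of 60, 35% (23.1% to 48.4%), against 28.5% (27.0% to 30.1%), and with 3 or more 23 of 42, 54.8% (38.7% to 70.2%), against 42.5% (40.4% to 44.7%). In each class the nhr share was the higher, but in each its interval reached the share of other genes. Per kb of promoter, nhr genes held 0.478 pooled summits and other genes 0.346, while the 6 nuclear chromosomes held 0.299 pooled peaks per kb.

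Many starts did not go with a strong peak in every case. The 11 starts of nhr-179 had a single pooled summit of 40.3 and none in either replicate list, and the 7 starts of nhr-109 had no summit in any list. With 7 starts, nhr-66 had 41.5 in the pooled list, 25.8 in replicate 3 and none in replicate 4. Of the 6 nhr genes with 6 or more starts, nhr-49 and nhr-23, with 6 each, were those with pooled values over 60. nhr-21, also with 6, had 50.2 in the pooled list, 25.2 in replicate 3 and 36.1 in replicate 4.

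By chromosome, the family was concentrated on V, which holds 62.1% of nhr genes and 24.5% of other genes. There 47 of 167 nhr genes had a pooled summit, 28.1% (21.5% to 35.6%), against 22.6% (21.5% to 23.9%) of other genes. On X it was 15 of 23, 65.2% (42.7% to 83.6%), against 33.6% (31.8% to 35.4%), and on IV 13 of 33, 39.4% (22.9% to 57.9%), against 21.6% (20.1% to 23%). The intervals of nhr and other genes were apart on X alone, and on IV they narrowly overlapped. The counts were 7 of 23 on I, 2 of 15 on II and 2 of 8 on III, and on II the nhr share of 13.3% was below the 20.3% of other genes.

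Chromosome X also carried the most pooled peaks for its length, 0.407 per kb against 0.302 on V and 0.248 on I. The 15 nhr genes on X with a pooled summit had a median signal value of 54.7, against 44.5 for the 47 on V. The 8 nhr genes on X without one were nhr-14, nhr-27, nhr-45, nhr-91, nhr-167, nhr-255, nhr-272 and nhr-281. Other genes of the same number of starts on X would give 9.49 of the 23.

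**Figure D2:**
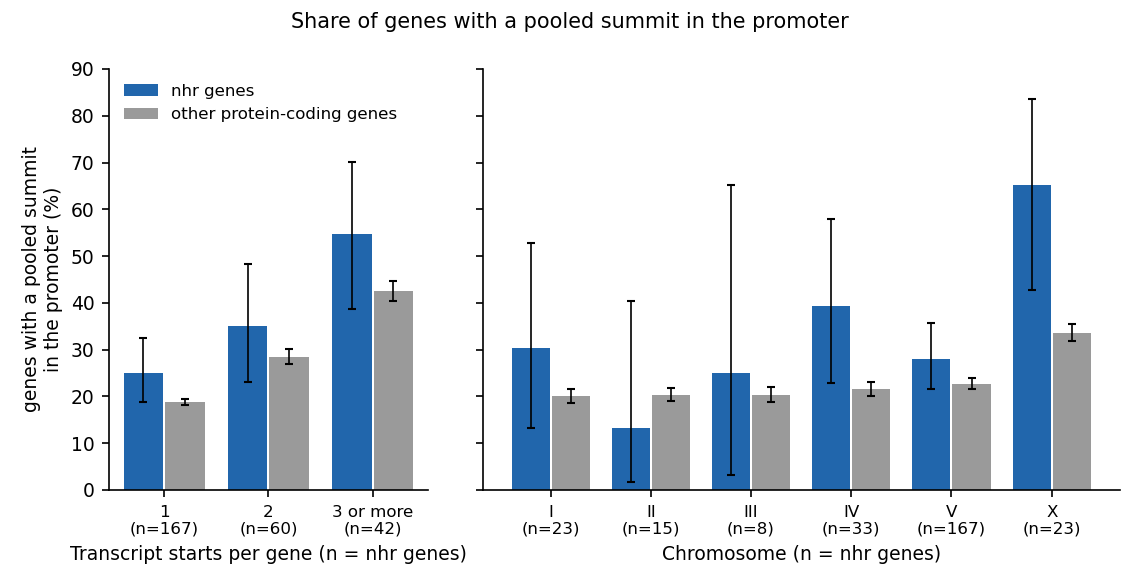
Percentage of genes with a pooled summit in the promoter, nhr genes (blue) left of other protein-coding genes (grey), by number of transcript starts and by chromosome, with exact 95% binomial intervals over genes as bars and the number of nhr genes under each pair. The share grows with the number of starts in both sets, from 25.1% to 54.8% of nhr genes, and the widest gap is on X, 65.2% of nhr genes against 33.6% of other genes.

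Taking the share of other genes in each combination of start number and chromosome, and weighting it by the nhr genes there, gave 68.3 genes. The 86 nhr genes observed with a pooled summit were set against that number. The ratio was 1.26, with an exact interval over genes of 1.04 to 1.49 that treats the 68.3 as fixed. For summits in all of the pooled, replicate 3 and replicate 4 lists, 44 were observed and 32.4 given, a ratio of 1.36 (1.01 to 1.77). In the replicate lists alone the ratios were 1.18 (0.962 to 1.42) for replicate 3 and 1.16 (0.956 to 1.39) for replicate 4, with intervals that include 1. For the IDR-thresholded list 1 was observed and 2.60 given. Without regard to starts and chromosome the pooled ratio was 1.40, so the excess was smaller once they were held alike, and its lower limit was then near 1. Without chromosome X the ratio was 1.21 and its interval, 0.974 to 1.46, included 1.

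The share also varied along V. With chromosome V cut into 3 equal lengths, 40 of 126 nhr genes in the outer lengths had a pooled summit, 31.7% (23.7% to 40.6%), against 20.3% of other genes there. In the central length it was 7 of 41, 17.1% (7.15% to 32.1%), against 26.7% of other genes. The nhr share thus stood above that of other genes in the outer lengths and below it in the centre, where the interval covers the share of other genes. No test of the difference between the lengths was run.

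Many nhr genes lie in clusters of related receptors. Of the 159 with another nhr gene within 10 kb, 39 had a pooled summit, 24.5% (18.1% to 32.0%), where other genes of the same starts and chromosomes would give 38.3. Of the 110 with no nhr neighbour within 10 kb, 47 had one, 42.7% (33.3% to 52.5%), where other genes would give 30.0. On V alone the shares were 31 of 122, 25.4% (18.0% to 34.1%), for those with a neighbour and 16 of 45, 35.6% (21.9% to 51.2%), for those without. Clustered receptors thus had about as many summits as other genes would give, and isolated ones had more. On V other genes would give 29.6 and 10.6, and the 2 intervals overlap there. The excess was also smaller without chromosome X and without the receptors of described role below. These groupings were not separated from one another, and the cause was not tested. Genes with a single start made up 66% of the clustered nhr genes and 56.4% of the isolated ones.

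Other large families do not all resemble the nhr genes in this respect. Among the ceh homeobox genes 19 of 63 had a pooled summit, 30.2% (19.2% to 43.0%), among the clec C-type lectin genes 48 of 240, 20.0% (15.1% to 25.6%), and among the str chemoreceptor genes 40 of 193, 20.7% (15.2% to 27.1%). The nhr interval overlaps those of the homeobox and chemoreceptor genes and not that of the lectins. In all of the pooled, replicate 3 and replicate 4 lists, where the nhr share was 16.4%, the homeobox genes had 7.94% (2.63% to 17.6%), the lectins 8.33% (5.16% to 12.6%) and the chemoreceptors 5.18% (2.51% to 9.32%). There the nhr interval is apart from that of the chemoreceptors and overlaps the other two.

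The replicate values given below are those of the strongest peak in each promoter, which need not be the peak that overlaps the strongest pooled one. At 20 of the 86 nhr genes they differed in at least 1 replicate, and the overlapping values are then given for the genes named. Of the 86 strongest pooled peaks, only that of nhr-68 had a q-value of 0.05 or lower and 18 had 0.5 or lower, so most values below belong to weak peaks.

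At nhr-68, which activates the genes of the propionate shunt when propionate accumulates, the strongest pooled peak lay at chrV:11572884-11573263 with a signal value of 128, rank 237 in the list and a q-value of 0.0264. The promoter had values of 57.4 in replicate 3, rank 498, and 75.3 in replicate 4, rank 152. Both replicates thus placed it among their strongest 500 peaks. The summit lay 366 bp upstream of the nearest nhr-68 start but 84 bp from a start of H12C20.7, the neighbouring protein-coding gene, so that the peak is shared by both promoters. When each summit counted only for the gene with the nearest start, no nhr gene was left in the IDR-thresholded list.

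A second IDR-thresholded peak reached into an nhr promoter with its summit just outside it. It was at chrX:15741872-15742251, with a pooled signal value of 143, rank 162, and overlapped peaks of 61.6 in replicate 3 and 79.2 in replicate 4. Its summit was 548 bp upstream of the start of nhr-255, outside the 500 bp limit, and 12 bp from the start of a tRNA gene, WBGene00014626. Just inside the limit was the summit of nhr-48, at 494 bp upstream. This pair was singled out after the values were seen.

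The strongest of the remaining members was nhr-35, one of the receptors most like vertebrate HNF4, with a pooled value of 95.6, rank 600. The replicate peaks that overlap it had 27.3, rank 12895, in replicate 3 and 66.6, rank 237, in replicate 4, and a separate replicate 3 peak of 30.8 was the strongest in the promoter. The pooled peak was thus much higher in the order of replicate 4 than in that of replicate 3. nhr-48, a relative of daf-12 and of the vertebrate pregnane X and vitamin D receptors, had 91.5 in the pooled list at chrX:15707529-15707908 and 48.8 in replicate 3. No replicate 4 summit lay in its promoter, though a replicate 4 peak of 62, rank 323, overlapped the pooled peak, whose summit was at the window's edge. At nhr-48, therefore, a replicate 4 peak was present with its summit outside the window.

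The pooled peak of nhr-41, a member of the class of the vertebrate testicular receptors, was at chrIV:1388085-1388464 with a value of 90.4, beside 36.6 in replicate 3 and 50.4 in replicate 4. It lay in an intron of nhr-41, 381 bp upstream of a later start, and its summit was 12 bp from the start of the tRNA gene WBGene00023202. nhr-41 had 4 pooled summits in its promoters, the most of any nhr gene, and the other 3 had values of 54.5, 39.4 and 34.0. A tRNA, snoRNA or snRNA promoter shared the strongest summit in 2 of the 86 nhr genes, nhr-41 and nhr-193. AKIR-1 signal of the receptor gene and of the small RNA gene cannot be told apart there.

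Next in order came nhr-46, nhr-62, nhr-28, nhr-1, nhr-49 and nhr-3. At nhr-46 the values were 84.8 in the pooled list, 34.3 in replicate 3 and 49.5 in replicate 4, and the summit lay 34 bp after a start. At nhr-28 they were 83.8 in the pooled list, 37.3 in replicate 3 and 44.8 in replicate 4. Their ranks were 815 and 1313 in replicate 4, above ranks 5544 and 3877 in replicate 3. For nhr-1 the values were 83.5 in the pooled list, 58.0 in replicate 3 and 44.3 in replicate 4. For nhr-3 they were 76.8, 51.0 and 46.9 in the same lists. All 4 had summits in both replicates, and nhr-1 had the highest replicate 3 value of the nhr genes with summits in both, just above nhr-68. At nhr-1 the strongest pooled summit was in an exon outside the coding sequence, 99 bp before a later start, where the overlapping replicate peaks had 46.5 in replicate 3 and 31.6 in replicate 4. A second pooled summit of 73.0 lay 233 bp before its first start. The summit of nhr-28 lay 22 bp from the start of the non-coding RNA gene C11G6.5, and 2 non-coding genes, H01A20.2 and H01A20.5, shared that of nhr-3.

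**Figure D3:**
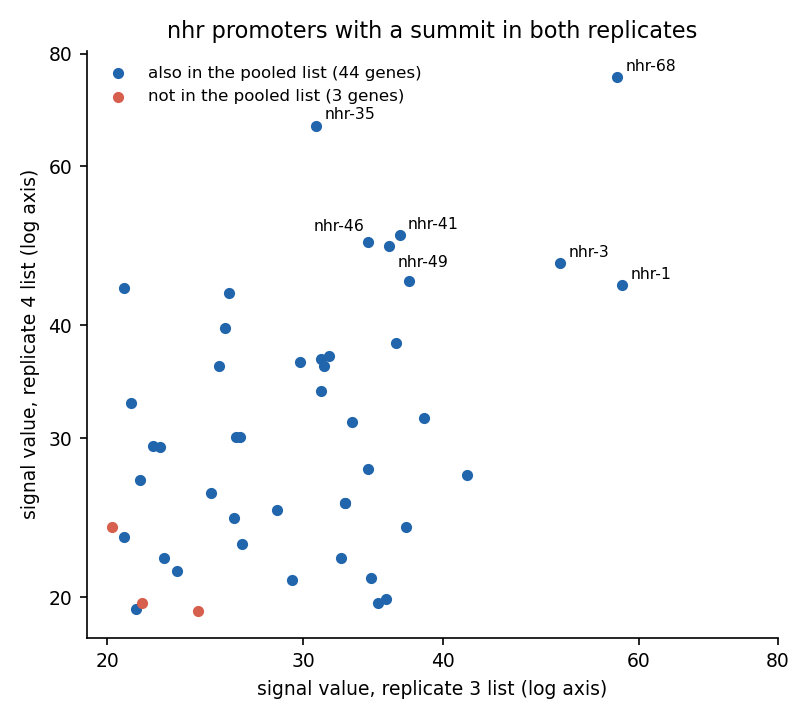
Signal value in replicate 4 against replicate 3 (both log axes, deposited units) of the strongest peak in the promoter of the 47 nhr genes with a summit in both replicate lists, 44 of them also with a pooled summit. Values spread widely around a weak relation, with nhr-68 high in both replicates and nhr-35 high in replicate 4 only. nhr-1 and nhr-3 are in the upper part of both, at 58.0 and 51.0 in replicate 3 and 44.3 and 46.9 in replicate 4.

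Over the 47 nhr genes with a summit in both replicate lists, the log2 signal values of the replicates had a Pearson r of 0.45 and a Spearman rho of 0.36, against 0.60 and 0.42 over 2263 other genes. Without nhr-68 the values were 0.36 and 0.32 over 46. These are correlations across genes, whose peaks share their 2 samples, and genes are not replicates. The strongest pooled peak overlapped a peak of both replicates at 51 of 86 nhr genes, 59.3%, against 50.9% at other genes, a peak of replicate 3 only at 12, of replicate 4 only at 18 and of neither at 5. The order of the nhr genes below nhr-68 thus differed between the replicates.

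By role, the listed nhr receptors conserved between worms and other animals had pooled summits at 8 of 10 promoters and summits in all 3 lists at 5. The background was 23% and 10.7% of all protein-coding genes. These 10 genes had a median of 2.5 starts, against 1 over the family, and starts were not held alike in these counts. After nhr-48 and nhr-41 came nhr-23, the ROR-like regulator of the molt, with 65.3 in the pooled list, 37.1 in replicate 3 and 23.9 in replicate 4, where the overlapping peaks had 30.9 and 23.7. nhr-6, the NR4A-class receptor needed for the spermatheca, had 62.8, 33.2 and 31.3 in the same order of lists. nhr-85, the Rev-erb-like regulator of developmental timing, had 58.4, 31.1 and 33.8, and the overlapping replicate 3 peak had 22.8. All 3 of these were in the upper part of the family and in both replicates. Lower in the pooled list was nhr-111, with 54.3, and 26.1 and 30.1 in replicates 3 and 4. nhr-25, the Ftz-F1 and SF-1 relative of molting and epidermal development, had 43.4 in the pooled list and 36.1 in replicate 4. nhr-8, which acts in xenobiotic resistance and cholesterol balance, had 40 in the pooled list and 31.1 in replicate 4. Neither nhr-25 nor nhr-8 had a replicate 3 summit, and their pooled q-values were 0.722 and 0.759. The 2 without a pooled summit were nhr-67, the tailless relative of anchor cell invasion, which was in no list, and nhr-91, the GCNF relative, with 23 in replicate 3.

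Of the 6 receptors most like HNF4, 3 had pooled summits, and all 3 were in both replicates. These were nhr-35, nhr-49 and nhr-69. The shares of all protein-coding genes were 23% with a pooled summit and 10.7% in all 3 lists. The 6 genes had a median of 3 starts, and starts were not held alike here either. nhr-49, which drives fatty acid desaturation and oxidation, had 82.0 in the pooled list, 35.8 in replicate 3 and 49 in replicate 4, and 2 further pooled summits of 49.9 and 38.5. Its neighbour nhr-69 had 34.6, near the floor of the list, with 28.4 and 25 in replicates 3 and 4. The values thus separate nhr-35 and nhr-49 from nhr-69, and nhr-14, nhr-31 and nhr-64 had no pooled summit.

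The receptors of metabolism and diet had pooled summits at 7 of 9 promoters, with 4 in all 3 lists. The shares of all protein-coding genes were 23% and 10.7%. These 9 genes had a median of 2 starts, against 1 over the family, and starts were not held alike for this list. Besides nhr-68 and nhr-49, nhr-62, needed for the long life of worms under dietary restriction, had 84.5 in the pooled list, 36.3 in replicate 3 and 38.2 in replicate 4. nhr-114, which protects the germline on diets poor in vitamin B12, had 63.3, 25.7 and 43.4. The replicate 3 peak that overlaps its pooled peak had 44.1, rank 1715, with its summit outside the window. The strongest pooled summit of nhr-114 lay 432 bp upstream of a start, in an intron of another gene, Y45G5AM.9. nhr-68, nhr-49, nhr-62 and nhr-114 all carried summits in both replicates. nhr-80, a partner of nhr-49 in fatty acid desaturation, had 48.2 in the pooled list and 25.4 in replicate 4. nhr-66, a partner of nhr-49 in lipid breakdown, had a summit in the pooled list and replicate 3, given above. nhr-76, which acts in the serotonin control of fat, had 36.9 in the pooled list alone. These 3 thus lacked at least 1 replicate. nhr-10, which acts upstream of nhr-68 in the propionate response, was in no list, and nhr-13, a further partner of nhr-49, had only 24.1 in replicate 4.

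Receptors of stress and xenobiotic responses had pooled summits at 3 of 5 promoters and none in all 3 lists, where the shares of all protein-coding genes, 23% and 10.7%, leave little to read from 5 genes. nhr-57, a target of the hypoxia factor HIF-1, had 42.1 in the pooled list and 34.5 in replicate 4. nhr-176, which binds the drug thiabendazole and drives its detoxification, had 36.3 and a replicate 3 value of 22.5. Its pooled peak also overlapped a replicate 4 peak of 23 whose summit was outside the window. The pooled summit lay 130 bp upstream of the nhr-176 start, in a coding exon of the neighbouring gene cyp-35D1, with a q-value of 0.788. nhr-86, a sensor of a Pseudomonas metabolite, had only a replicate 3 summit of 38.0, and nhr-45, of the xenobiotic response to mitochondrial stress, had none. Each of these 5 genes had a summit in at most 1 replicate.

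The developmental receptors had pooled summits at 6 of 10 promoters, and 5 were in all 3 lists. Among all protein-coding genes these shares were 23% and 10.7%. The 10 genes had a median of 2.5 starts, which were again not held alike. nhr-2, which acts in the early embryo, had the highest pooled value of this group at 65.9, with 34.3 in replicate 3 and 27.7 in replicate 4. nhr-40, of muscle and embryonic development, had 57.6 in the pooled list and 44.0 in replicate 4. No replicate 3 peak overlapped its strongest pooled peak, and its replicate 3 value of 20.7 came from another peak of the gene. The other 4 with a pooled summit, nhr-23, nhr-6, nhr-85 and nhr-25, are among the conserved receptors above. nhr-31, of the excretory canal, and nhr-67 had no summit in any list, and nhr-60, of the seam cells, and nhr-91 had only replicate 3 summits of 22.0 and 23.

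**Figure D4:**
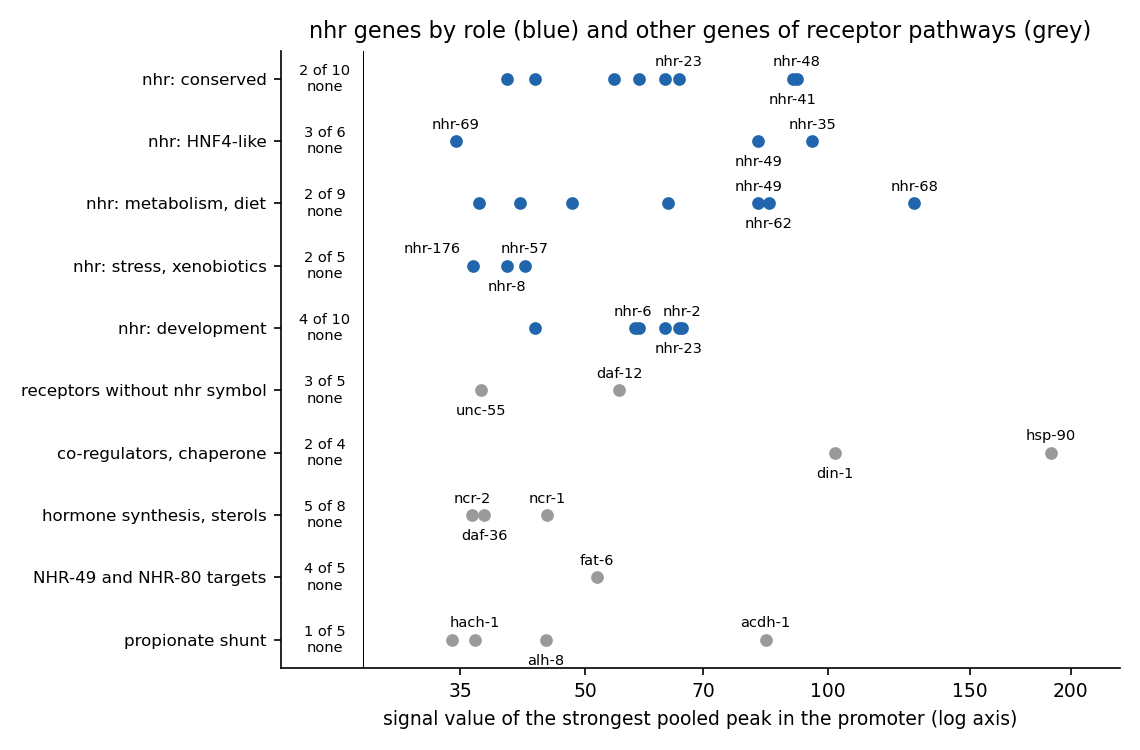
Signal value (log axis, deposited units) of the strongest pooled peak in the promoter of each gene of the role lists, nhr genes in blue above other genes of receptor pathways in grey, with the number of genes lacking a pooled summit at the left and up to 3 of the strongest named. The conserved and metabolic receptors reach 91.5 and 128, the 3 stress receptors with a pooled summit lie at 36.3 to 42.1, and hsp-90 at 189 is the only other gene above nhr-68.

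Together the 31 nhr genes in any role list had pooled summits at 21, 67.7% (48.6% to 83.3%), where other genes of the same number of starts and chromosomes would give 10.1. The 238 nhr genes in no role list had them at 65, 27.3% (21.8% to 33.4%), where other genes would give 58.1. The conserved and HNF4-like receptors alone had 11 of 16, 68.8% (41.3% to 89.0%), where 5.99 would be given. The listed receptors had pooled summits more often than the rest of the family, and without them the ratio of observed to given was 1.12 (0.890 to 1.37). The role lists were made from knowledge of the genes but with earlier results of these data known. The difference and the ratio are therefore descriptions of these genes, and the intervals cannot be read as a test of role.

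Receptors that carry other symbols had pooled summits at 2 of 5 promoters, beside 23% of all protein-coding genes. daf-12, the receptor of the dafachronic acids that govern dauer entry, had 55.1 in the pooled list, 35.6 in replicate 3 and 25.5 in replicate 4. unc-55, which sets motor neuron identity, had 37.2 in the pooled list and 22.1 in replicate 4. No list had a summit at fax-1, odr-7 or sex-1. Among co-regulators, 2 of 4 had a pooled summit, beside the same 23% of all genes. hsp-90, the chaperone of steroid receptors, had 189, 93.9 and 95.9 in the pooled, replicate 3 and replicate 4 lists and was in the IDR-thresholded list. din-1, the co-repressor of daf-12, had 102, 52.1 and 54.8 in the same order. The promoters of mdt-15, the Mediator subunit that works with NHR-49, and cbp-1, a histone acetyltransferase, had no pooled summit. The 2 strongest values of receptor pathways outside the nhr genes were thus at hsp-90 and din-1, both higher than nhr-35.

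Genes of hormone synthesis and sterol transport had pooled summits at 3 of 8 promoters, beside 23% of all protein-coding genes. The pooled values were 44.9 at ncr-1 and 36.2 at ncr-2, homologues of the Niemann-Pick sterol transporter, and 37.5 at daf-36, an oxygenase of dafachronic acid synthesis. Of these ncr-1 alone was in both replicates. Of 5 targets of NHR-49 and NHR-80 in fat metabolism, the desaturase gene fat-6 had a pooled summit, beside the same 23% of all genes. Its values were 51.7 in the pooled list, 30.5 in replicate 3 and 33.7 in replicate 4. The targets fat-5, fat-7, acs-2 and fmo-2 had no pooled summit. The propionate shunt, whose genes nhr-68 activates, had pooled summits at 4 of 5, and 2 of the 5 were in all 3 lists. The background of all protein-coding genes was 23% and 10.7%, and 5 genes leave little to read. acdh-1, its first enzyme, had 83.7 in the pooled list, 36.2 in replicate 3 and 41.7 in replicate 4. alh-8, a later enzyme of the shunt, had 44.7, 31.5 and 33.1 in the same lists. hach-1 had 36.5 and ech-6 34.2 in the pooled list, each with 1 replicate. Both lay near the floor of that list, 33.6, with q-values of 0.786 and 0.797. nhr-68 and acdh-1 both had peaks in all 3 lists, while nhr-10 and hphd-1 had none in any. The nhr-68 summit lay nearer a start of H12C20.7, as given above, and a link between receptor and shunt genes was not tested.

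Of the other nhr genes, those with pooled values over 57 were nhr-204 at 71.4, nhr-256 at 71.2, nhr-11 at 69.6, nhr-52 at 66, nhr-93 at 64.1, nhr-16 at 58.6, nhr-53 at 58.4 and nhr-135 at 57.7. All but nhr-53 had summits in both replicates, and its pooled peak overlapped a replicate 3 peak of 23.6 with its summit outside the window. The divergent neighbours nhr-152 and nhr-94 shared 1 summit of 61.6, with 32.7 in replicate 3 and 25.4 in replicate 4. That is the only strongest summit that fell to 2 nhr genes, so the 86 genes rest on 85 distinct peaks.

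The strongest pooled summit lay at a median of 165 bp upstream of the nhr start whose promoter holds it, against 183 bp upstream at other genes, and 69 of 86 nhr summits were upstream, 80.2%, against 83.4%. Within 100 bp of the start were 35, 40.7%, against 35.4% at other genes. The spread over the window was broad in both sets, without a single preferred distance. By annotation, 49 of the 86 nhr summits lay between protein-coding genes, 18 in a UTR or other non-coding exon sequence, 10 in a coding exon and 9 in an intron. At 7 nhr genes, 8.14%, the summit also lay in the promoter of another protein-coding gene, against 14.5% of other genes with a summit, and at 70 it lay in no other promoter of any kind. At 82 of the 86 genes the peak held no 50-base stretch that recurs elsewhere in the genome.

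**Figure D5:**
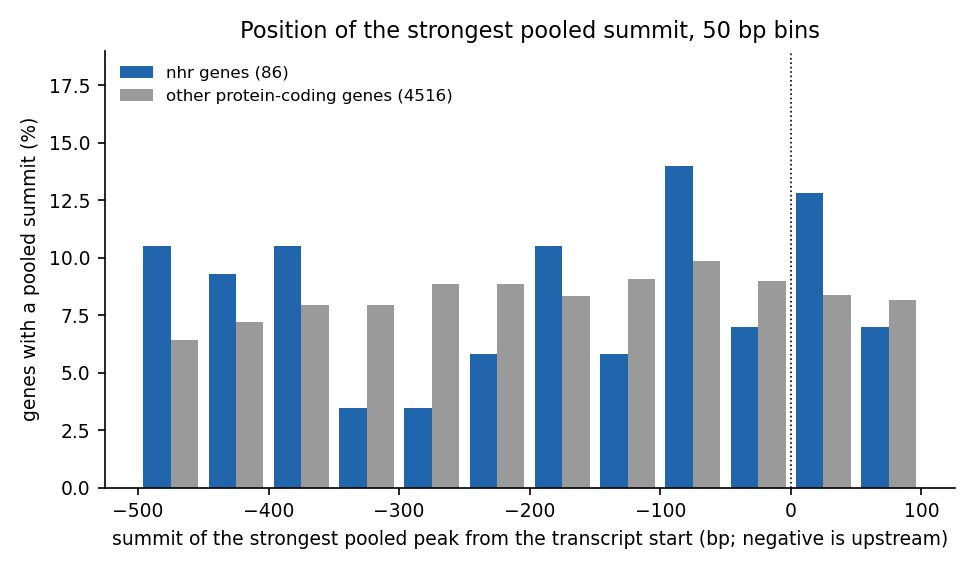
Percentage of genes whose strongest pooled summit falls in each 50 bp bin from 500 bp upstream to 100 bp downstream of the transcript start, for the 86 nhr genes (blue) and the 4516 other protein-coding genes (grey). Other genes are spread almost evenly, at 6.44% to 9.88% a bin, and nhr genes vary from 3.49% to 14% on counts of 3 to 12 genes a bin.

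In promoter sequence, counted from 250 bp before to 50 bp after the 5′-most start, AGGTCA on either strand was found in 10.8% of 269 nhr genes against 8.23% of other genes, AGTTCA in 21.6% against 20.4%, and AGTGCA in 15.6% against 9.56%. GAGAGA was found in 30.9% against 21.7%, and the TATA word TATAAA in 29.7% against 38.1%. The GC content had a median of 34.3% in both sets. Among the 86 nhr genes with a pooled summit AGGTCA was in 14%, AGTGCA in 17.4%, GAGAGA in 32.6% and TATAAA in 31.4%, against 9.29%, 14.8%, 30.1% and 29.0% of the 183 without. AGTTCA went the other way, with 17.4% against 23.5%. The words could overlap one another by their last or first bases and each was counted once per promoter.

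Around the summits themselves, in windows of 151 bp like those printed above, AGGTCA was found in 8 of 85 nhr windows, 9.41%, against 4.02% of 4200 windows at other genes. AGTTCA was in 12.9% against 10.3%, AGTGCA in 8.24% against 6.6%, GAGAGA in 21.2% against 14% and TATAAA in 11.8% against 17.0%. The windows with AGGTCA were those of nhr-23, nhr-28, nhr-55, nhr-57, nhr-66, nhr-76, nhr-111 and nhr-150, of which only nhr-28 had a pooled value over 80. Of the 4 windows printed, nhr-28 holds TGAACT and TGACCT 2 bases apart, nhr-68 holds AGTTCA and TCTCTC, and nhr-41 none of the words. A match describes the letters of a window and does not show that a receptor binds there.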

How the data were processed

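ChIP-seq of AKIR-1::GFP covered 2 biological replicates, numbered 3 and 4 per the labels, after sonication to a labelled size range of 200 to 800. Per the texts deposited with the lists, peaks were called for each replicate and for both pooled, each call with 1 further alignment set, and the IDR-thresholded list was made from these. For the aligner, peak caller, IDR threshold and scale of the signal, the sources used here name none. Signal values are as the authors deposited them. The deposited −log10 q-value was turned into a q-value. Summits came from the deposited offset from the peak start. All columns used belong to the group, and 0 columns were left without one.

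Genes came from Ensembl release 115 (46926 genes) and sequence from the RefSeq assembly WBcel235, with which ce11 coordinates agree in chromosome lengths. No test between groups was possible. Shares carry exact binomial intervals at 95%, and the number given by other genes weights their share in each class of starts (1, 2, 3 or more) and chromosome by the nhr genes there. The number given by other genes was tested on simulated calls per gene. Summit counts were checked with a second tool on the pooled and replicate 3 lists. Named genes are the IDR-thresholded nhr gene, the 25 with the highest pooled signal, the 5 with the most starts and members of 10 role lists. Members and lists were chosen with earlier results of these data known. Alternatives changed the promoter, the starts, the peaks and the strata. Scripts ran in Python 3.11.15 with scipy 1.17.1, pandas 2.3.3, numpy 2.4.6 and, for figures, matplotlib 3.10.9.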

Additional observations from a re-analysis of the deposited data

How the results depend on the processing

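The count of 86 nhr genes with a pooled summit fell to 36 with the 10000 strongest pooled peaks and to 21 with the 5000 strongest. The difference from other genes, 9.07 percentage points, was 4.07 points (0.240 to 8.73) with the 10000 strongest and 2.28 points with the 5000 strongest, with an interval of -0.626 to 6.16. The count of 44 in all 3 lists was 75 with promoters from 1000 bp upstream to 200 bp downstream, 69 with any overlap of peak and promoter, 29 with the 10000 strongest and 20 with the 5000 strongest peaks. The 1 nhr gene of the IDR-thresholded list became 2 with the wide promoter and with any overlap, which add nhr-255. It became 0 with 250 bp on either side of the start and with 1 gene per summit. Without a replicate, taking the 400 strongest peaks of the other, it ranged from 0 to 2, with nhr-35 and nhr-68 in replicate 4.

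The ratio of observed to given nhr genes, 1.26, ranged from 1.12 to 1.39 over 15 alternatives and stayed above 1. Its interval included 1 with the wide promoter (0.994 to 1.30), with either replicate alone, with the 10000 and 5000 strongest peaks, without chromosome X and without the role-list genes. Finer strata along chromosomes, leaving out X and leaving out role-list genes were chosen after seeing the data. Leaving out a replicate gave 78 to 82 nhr genes, a difference of 6.31 to 6.84 points and a ratio of 1.16 to 1.18. With either replicate kept, 62 nhr genes had a pooled summit and a summit in that replicate. The pooled list was made from both replicates, so the count of 62 leaves neither of them out. The causes were not tested. No paired analysis was possible because there is 1 group.

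The lists hold no reads, so depth limits cannot be given, and with 2 samples no sample can be tested as outlying.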
